A study of Mus musculus with 15 samples.

Results

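The data compared where the transcription factor NRL was bound in the mouse retina at postnatal day 4 (P4) with postnatal day 2 (P2). The comparison used 4 of the 15 labelled libraries, replicates 3 and 4 at each age, which are the P2 and P4 libraries with a column in the deposited table of 8996 peaks, and it covered all of those peaks. The study followed NRL binding in C57BL/6J mouse retinas of 4 ages, P2, P4, P10 and P28, by CUT&RUN, in which an antibody directs a tethered nuclease to cut and release the DNA around a bound protein. Each experiment started from 250000 dissociated retinal cells and used an anti-NRL antibody, and age was the only factor that separated the groups. The labels give 3 libraries at P2 and 4 at P4, and the others of these ages were not analysed here. The labels do not tie replicates to separate animals, and the p-values below measure only the spread between these libraries. All 15 labelled libraries used the NRL antibody, and no signal from a control antibody was analysed here.

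NRL is a basic leucine zipper protein of the Maf family that commits photoreceptor precursors to the rod fate. It acts with the homeodomain protein CRX and the nuclear receptor NR2E3 to switch on rod genes, and without it the precursors become cone-like cells. In the mouse retina most rods are born around birth, and their precursors mature over the following weeks, so P2 and P4 both lie early in that period. A retina holds many cell types, and fewer cells with a bound site and less binding per cell cannot be told apart in these libraries.

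The promoter sequences of 5 genes are shown because the results below turn on those promoters. Otx2 had the promoter with the most marked difference among photoreceptor regulators, Crx and Neurod1 encode other regulators of these cells, and H3c2 and H2bc14 are histone genes with lower signal at P4. Each is the part of the RefSeq promoter window upstream of the transcription start site (TSS) that lies under the peak, in build GRCm38.p6, written 5′ to 3′ on the gene's strand. Capitals mark, on either strand, the Maf half-site core TGCTGA (Otx2, Neurod1), the CRX and OTX motif TAATCC (Crx) or the CCAAT box (H3c2, H2bc14).
Otx2, chr14:48667509-48667605, minus strand: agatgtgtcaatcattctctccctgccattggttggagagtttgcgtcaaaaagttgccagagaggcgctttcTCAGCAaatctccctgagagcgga
Crx, chr7:15879956-15880153, minus strand: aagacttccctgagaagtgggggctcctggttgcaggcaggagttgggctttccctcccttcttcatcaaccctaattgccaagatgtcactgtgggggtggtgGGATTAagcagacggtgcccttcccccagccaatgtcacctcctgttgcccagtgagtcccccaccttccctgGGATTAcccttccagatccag
Neurod1, chr2:79456637-79456886, minus strand: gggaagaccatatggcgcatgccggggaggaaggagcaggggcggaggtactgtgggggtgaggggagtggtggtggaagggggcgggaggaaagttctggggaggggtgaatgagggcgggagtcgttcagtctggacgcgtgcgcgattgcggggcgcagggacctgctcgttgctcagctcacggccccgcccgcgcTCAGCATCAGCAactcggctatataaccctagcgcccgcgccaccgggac
H3c2, chr13:23752172-23752344, plus strand: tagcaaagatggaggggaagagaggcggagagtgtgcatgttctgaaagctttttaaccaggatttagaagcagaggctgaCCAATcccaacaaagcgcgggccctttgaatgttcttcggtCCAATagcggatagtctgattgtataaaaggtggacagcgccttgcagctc
H2bc14, chr13:21721794-21722043, plus strand: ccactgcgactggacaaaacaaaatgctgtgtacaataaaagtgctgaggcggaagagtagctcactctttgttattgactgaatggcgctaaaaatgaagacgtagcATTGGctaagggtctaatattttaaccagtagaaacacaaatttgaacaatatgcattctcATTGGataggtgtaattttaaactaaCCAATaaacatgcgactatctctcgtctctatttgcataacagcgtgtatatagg

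The marked Otx2 match began 24 bases before the TSS, the Crx matches 94 and 21 bases before it, and the Neurod1 matches 50 and 44 bases before it. The CCAAT boxes lay at −92 and −51 in H3c2 and at −142, −81 and −55 in H2bc14. Only the motif named for each gene is marked. Among the unmarked matches, the Otx2 and Crx sequences each held 1 CCAAT, and the H2bc14 sequence held 1 TGCTGA. Over all 32851 RefSeq promoter windows of 300 bases, 19.5% held TGCTGA on either strand, 7.06% held TAATCC, 37.4% held CCAAT and 7.81% held the AP-1 motif TGANTCA, which can share bases with TGCTGA. Among the 4796 windows under any peak the shares were 16.1%, 6.55%, 50.8% and 3.94%. These are matches of letters and do not show that a factor bound there.

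Signal is given as RPKM, the reads in a peak per kilobase of its width, divided by a scale set for each library, and differences are on the log2(RPKM + 1) scale, P4 minus P2. The P2 libraries held 78255 and 49430 reads in peaks and the P4 libraries 85740 and 150878, with a median of 4 to 10 reads per peak, so 3 reads at the median width of 322 bp corresponded to 1.17 to 1.77 RPKM. P4 replicate 4 stood apart. Peaks held 2.15% of its scale, against 0.940% to 1.09% in the other 3 libraries, and its median peak was 0.69 higher on the log2 scale than that of P4 replicate 3, whereas P2 replicate 4 differed from P2 replicate 3 by −0.04. Results are therefore given on the library scale and after subtracting each library's own median (centring), and the values without P4 replicate 4 are given where they bear on a result. Its part in the results was not tested beyond leaving it out.

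On the library scale most peaks read higher at P4 than at P2, and after centring the median difference was near 0. The median difference over all peaks was 0.48 on the library scale, 0.01 after centring and 0.16 without P4 replicate 4. With limma and Benjamini-Hochberg adjustment over all 8996 peaks, 0 peaks passed an adjusted p of 0.05 (0%) on either scale, and the smallest adjusted p was 0.056 on the library scale and 0.21 after centring. At an unadjusted p under 0.05, 1295 peaks were higher (14.4%) and 70 lower (0.778%) on the library scale, against 485 higher (5.39%) and 401 lower (4.46%) after centring. The count of 0 depended on single libraries and on the filter: it was 199 without P2 replicate 3, 34 without P2 replicate 4, 836 without P4 replicate 3, 114 and 121 without P28 replicates 3 and 4, 0 without P4 replicate 4, and 139 among the 5936 peaks with at least 20 reads over the 4 libraries. With limma-voom on the recovered reads it was 8. For a single peak, an exact two-sided permutation test of 2 libraries against 2 cannot give a p below 0.333.

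Both P4 libraries lay above both P2 libraries at 3610 peaks (40.1%) on the library scale, and both lay below at 352 (3.91%). After centring these counts were 1651 (18.4%) and 1679 (18.7%). Ranking was restricted to peaks whose libraries did not overlap on either scale, with at least 20 reads over the 4 libraries, a mean at or above the median peak, and a protein-coding gene outside the rod list within 50 kb. Of 3444 peaks that met the other conditions, 792 were higher and 69 lower on both scales, and the 12 highest and 12 lowest by limma's moderated statistic are described next, 1 per gene. The absence of overlap was part of this choice and is no result.

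**Figure D1:**
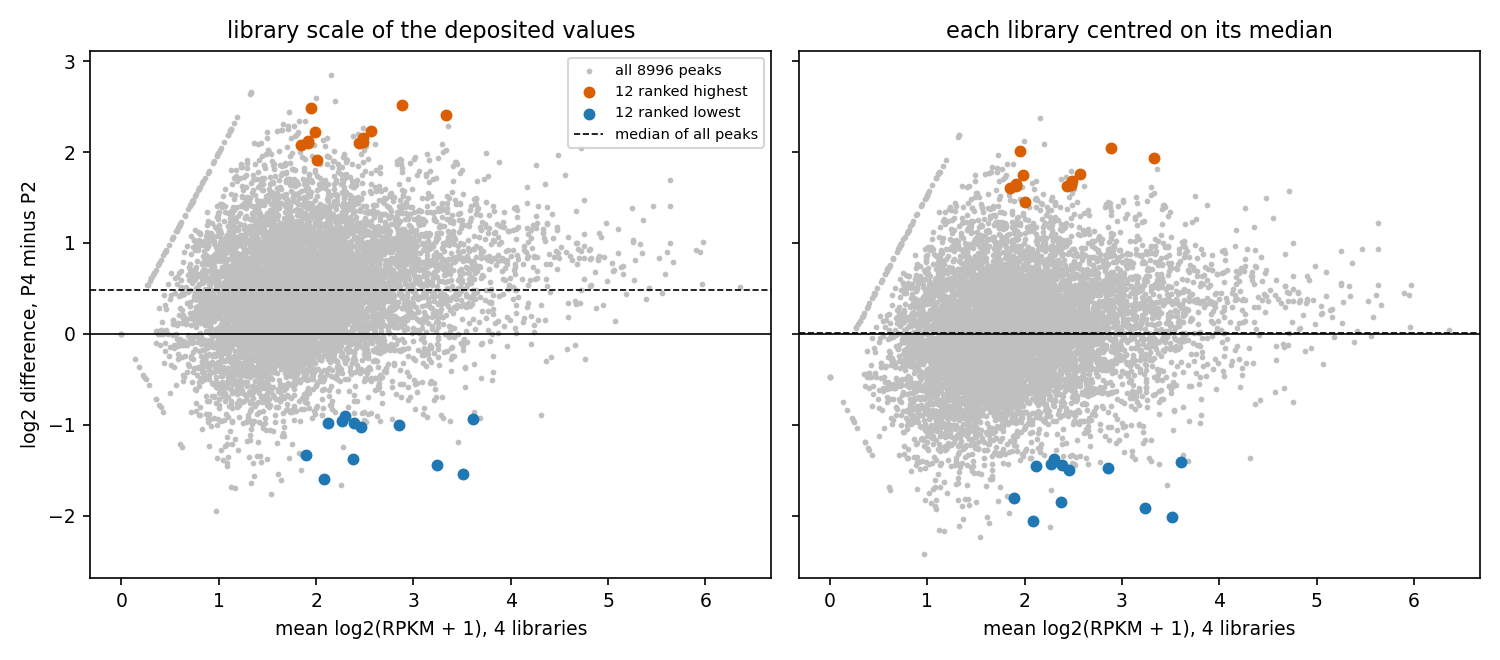
Difference between P4 and P2 (y axis, log2) against the mean of the 4 libraries (x axis, mean log2(RPKM + 1)) for all 8996 peaks, on the library scale (left) and after centring (right). Orange and blue points are the 12 peaks ranked highest and lowest, and the dashed line is the median of all peaks, 0.48 on the left and 0.01 on the right.

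The peak ranked highest lay in an intron of Dpf3, which encodes a subunit of the BAF chromatin remodelling complex, at chr12:83444555-83444886. Its signal was 1.9 and 2.3 RPKM in the P2 libraries and 9.18 and 29.7 RPKM in the P4 libraries. The P4 values stood well apart from each other, and the lower of them was above both P2 values. The difference was 2.52 (SE 0.57) on the library scale (limma, adjusted p = 0.063), 2.04 after centring (limma, adjusted p = 0.21) and 1.72 without P4 replicate 4. At the later ages the same peak averaged 116 RPKM at P10 and 44.8 RPKM at P28.

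The Otx2 promoter, whose sequence is shown above, was also among the 12. OTX2 is a homeodomain protein that photoreceptor and bipolar precursors need, and it acts upstream of Crx. The peak at chr14:48667476-48667605 covers the TSS and read 6.78 and 1.46 RPKM at P2 and 19.5 and 25.3 RPKM at P4. Here the P4 libraries were close to each other and the spread was between the P2 libraries. The values stood for few reads, 7 and 1 at P2 and 20 and 23 at P4. The difference was 2.41 (SE 0.62), with a limma adjusted p of 0.095, and it was 1.94 after centring and 2.23 without P4 replicate 4. The level was 20.2 RPKM at P10 and 7.98 RPKM at P28.

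Lbh, which encodes a transcription cofactor, had an intronic peak at chr17:72938143-72938473 with 1.14 and 2.3 RPKM at P2 and 8.44 and 13.8 RPKM at P4. Both P4 libraries were several times above both P2 libraries, and the difference was 2.15 (SE 0.53, limma adjusted p = 0.085), or 1.68 after centring. A peak in an intron of Lgmn, which encodes a lysosomal protease, read 2.32 and 1.17 RPKM at P2 and 6.23 and 17.5 RPKM at P4 (difference 2.11). Its level at P10 was 6.63 RPKM and at P28 1.48 RPKM, so the P28 libraries were near the P2 level. At the promoter of Zbed4, a zinc finger gene, the values were 1.03 and 0.517 RPKM at P2 and 4.49 and 8.92 RPKM at P4 (difference 2.07).

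The other 7 of the 12 rested on 2 or 3 reads over both P2 libraries. Their size is therefore given as a ratio of scaled reads with an exact 95% interval, which covers counting error only. These peaks were ranked by their difference in the same reads, and the intervals do not allow for that choice. Ext1, which encodes an enzyme of heparan sulfate synthesis, had 21 reads at P4 and 2 at P2 over its promoter, a ratio of 9.31 (2.28 to 81.9). Near Smg9, a nonsense-mediated decay factor, 31 reads stood against 3, a ratio of 9.16 (2.86 to 46.8). A peak in the Trim27 region, named for a ubiquitin ligase, had 20 reads against 2, a ratio of 8.87 (2.15 to 78.3). In an intron of Clpb, a mitochondrial disaggregase, 26 reads against 3 gave 7.69 (2.36 to 39.7). An intronic peak of Setd1b, a histone H3 lysine methyltransferase, had 23 reads against 3, a ratio of 6.80 (2.05 to 35.4). The intergenic peaks assigned to Amn and to Tor1b had ratios of 6.21 (1.85 to 32.5) and 5.32 (1.55 to 28.2).

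As a set, 3 of the 12 lay within 1 kb of a TSS, 5 in introns and 4 between genes. Their median level was 1.41 RPKM in P2, 10.4 RPKM in both P4 and P10, and 3.16 RPKM in P28. For comparison, the medians over all peaks were 2.17, 3.51, 6.27 and 3.81 RPKM. The limma adjusted p of all 12 fell below 0.05 when only peaks with at least 20 reads were tested. That filter is no support for them. It counts the same reads and was a condition of the ranking, and peaks with 2 or 3 reads at P2 passed it through their P4 reads. The adjusted p fell below 0.05 for 0 of the 12 after centring. It did so for 1 with only the 4 P2 and P4 libraries and for 1 with limma-voom. Each of the 12 was positive under every alternative, but the rule of no overlap fixed that sign in advance for most of them.

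**Figure D2:**
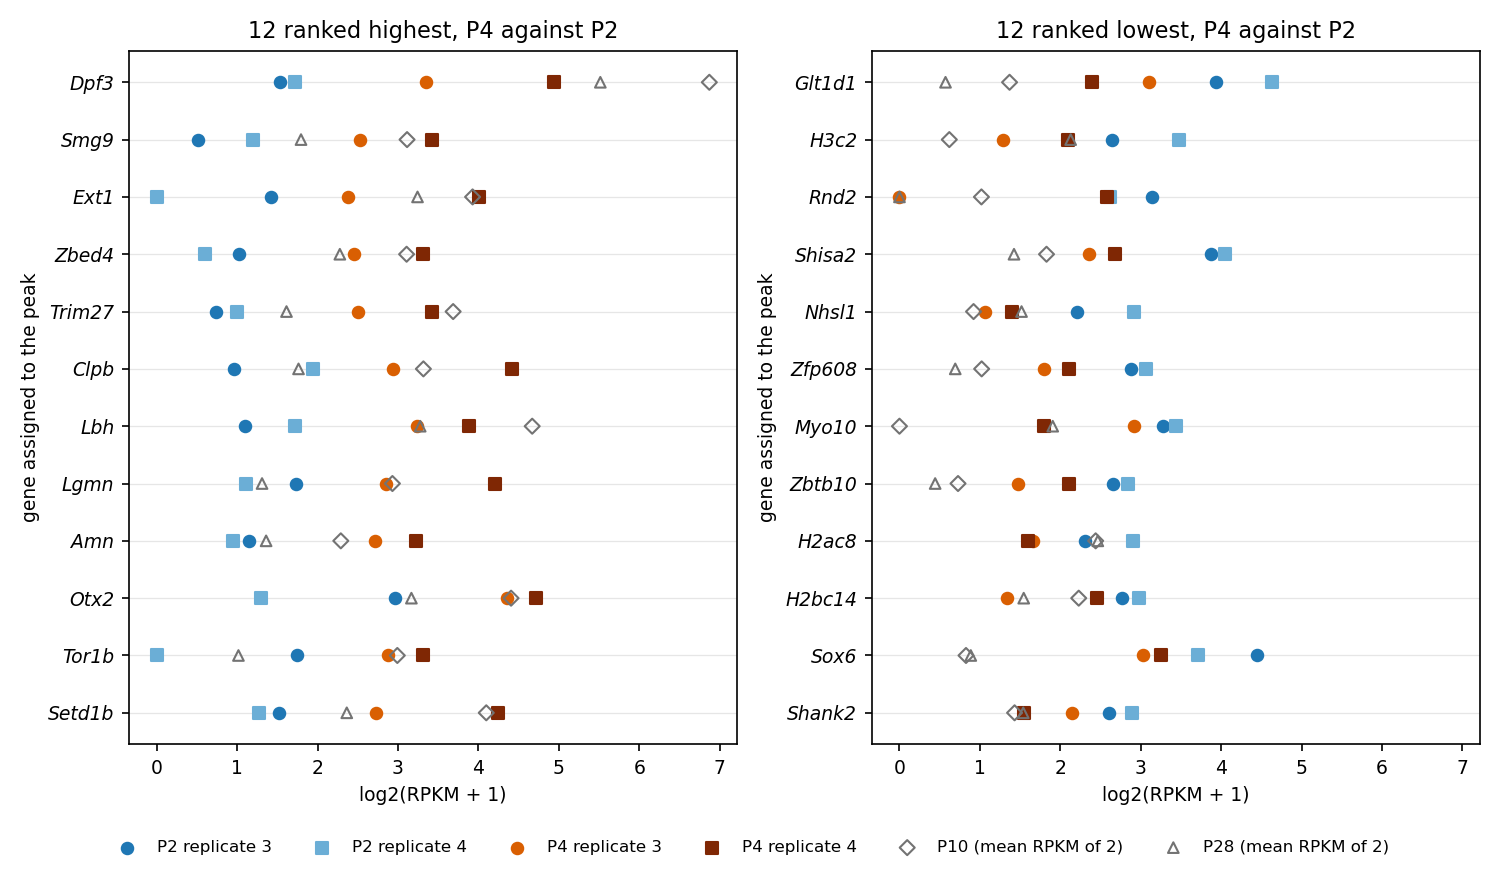
Signal of the 12 peaks ranked highest (left) and lowest (right) as log2(RPKM + 1) on the x axis, with 1 row per peak named by its assigned gene. Filled symbols are single libraries at P2 (blue) and P4 (orange and brown), and open symbols are the means of 2 libraries at P10 and P28. The Dpf3 peak averaged 116 RPKM at P10, while the 12 lowest had a median of 1.03 RPKM there.

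Ranking on the centred scale added 6 higher peaks, none at a promoter. The one with the most reads lay 16 kb upstream of Nfkbia, which encodes the inhibitor of NF-κB, at chr12:55508694-55509161. It read 3.50 and 4.07 RPKM at P2 and 11.7 and 31.4 RPKM at P4, with 57.8 RPKM at P10 and 10.6 RPKM at P28. Its difference was 1.61 after centring (limma, adjusted p = 0.21) and 2.09 on the library scale. With 23 reads at P2 and 146 at P4 it held more reads than any of the 12 above.

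An intronic peak of the gelatinase gene Mmp2 read 1.93 and 1.25 RPKM at P2 and 6.39 and 11.6 RPKM at P4. Others lay at Taok3, Agpat5 and Hs3st3b1, a kinase, a lipid acyltransferase and a heparan sulfate sulfotransferase gene, with centred differences of 1.54, 1.53 and 1.45. Over all 6 the median level was 3.48 RPKM at P2 and 18.0 RPKM at P4, and later 39.7 RPKM (P10) and 11.5 RPKM (P28).

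Among the 12 peaks ranked lowest, the leading one lay in an intron of Glt1d1, a glycosyltransferase gene, at chr5:127703682-127703849. It read 14.2 and 23.8 RPKM at P2 and 7.56 and 4.25 RPKM at P4, with 1.58 RPKM at P10 and 0.487 RPKM at P28. All P4 values were below all P2 values. The difference was −1.54 (SE 0.51, limma adjusted p = 0.17), −2.01 after centring and −1.18 without P4 replicate 4. Its 40 reads at P2 and 15 at P4 gave a P2 to P4 ratio of 3.01 (exact 95% interval 1.63 to 5.86). This peak too was ranked on the same reads, and the interval does not allow for that.

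Sox6, which encodes a developmental transcription factor, had an intronic peak at chr7:115866122-115866405 with 20.8 and 12.1 RPKM at P2 and 7.15 and 8.55 RPKM at P4. The P4 libraries were close together and below both P2 libraries, and the level was 0.775 RPKM at P10 and 0.849 RPKM at P28. The difference was −0.94 (SE 0.48, limma adjusted p = 0.36) and −1.41 after centring. An intronic peak assigned to Shisa2, an endoplasmic reticulum inhibitor of Wnt and FGF receptor maturation, read 13.7 and 15.5 RPKM at P2 and 4.14 and 5.43 RPKM at P4. Its replicates were close at both ages, and the difference was −1.44 (SE 0.57, limma adjusted p = 0.25). A peak near Rnd2, a small GTPase gene, held 7.78 and 5.14 RPKM at P2 and 0 and 4.96 RPKM at P4, so its difference of −1.59 rested on the 0 reads of P4 replicate 3, where 3 reads are the limit that a count of 0 allows.

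Of the rest, Myo10, a filopodial myosin gene, read 8.69 and 9.84 RPKM at P2 and 6.57 and 2.46 RPKM at P4, with 0 RPKM in the mean of P10. At Zfp608, a zinc finger gene, the intronic peak read 6.35 and 7.37 RPKM at P2 and 2.46 and 3.32 RPKM at P4, and 1.03 RPKM at P10. Nhsl1, Zbtb10 and Shank2, the last a postsynaptic scaffold gene, had differences of −1.33, −0.96 and −0.90. The other 3 were the promoters of the histone genes H3c2, H2ac8 and H2bc14, described further on.

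The 12 lowest had a median of 6.66 RPKM at P2 and 2.79 RPKM at P4, followed by 1.03 RPKM (P10) and 1.77 RPKM (P28). Only 2 of the 12 overlapped the authors' P10 peak list, which holds 83.2% of the table's peaks, and 11 overlapped their P2 list, which holds 13.5%. The P2 list was called from the P2 data, so the latter count is a description. The limma adjusted p fell below 0.05 under an alternative only for Nhsl1 and Rnd2, when peaks with at least 20 reads were tested. Here too the filter counts the reads that the ranking used.

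Centring added 6 lower peaks with other later levels on the library scale. They lay at Hmgn2, a nucleosome-binding protein gene, Ndufb6, a subunit of respiratory complex I, Prkrip1, Map1b, Nr3c1 and Pskh1. The peak at the promoter of Nr3c1, the glucocorticoid receptor gene, read 8.75 and 12.4 RPKM at P2 and 4.23 and 7.03 RPKM at P4, and the one at Hmgn2 read 12 and 10.2 RPKM at P2 and 3.78 and 7.65 RPKM at P4. At P10 and P28 Nr3c1 was at 8.59 and 11.8 RPKM and Hmgn2 at 10.9 and 12.3 RPKM, near the P2 values on the library scale. On that scale the median over all peaks also went from 2.17 RPKM at P2 to 6.27 at P10 and 3.81 at P28. After centring, all 6 peaks were below their P2 level at both P10 and P28. Over the 6 peaks the median was 8.51 RPKM at P2 and 4.33 RPKM at P4, then 9.74 RPKM (P10) and 6.64 RPKM (P28). Their centred differences ran from −1.44 at Prkrip1 to −1.29 at Map1b and Nr3c1, with limma adjusted p of 0.24 to 0.28. The Prkrip1 value was 0.12 in the values as deposited, where the widths are shifted.

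Several genes carried more than 1 peak, and 303 had 3 or more. Among the highest medians over a gene's peaks were 1.53 at Calcoco1, a selective autophagy receptor gene, 1.42 at Snx10, a sorting nexin gene, 1.41 at Samd7, a transcriptional repressor of rods, and 1.39 at Tdrd7, a Tudor domain protein of RNA granules. Each of these genes had 3 peaks except Tdrd7 with 4. Samd7 carried the highest signal of these: its intronic peak at chr3:30748258-30748698 read 18.8 and 35.8 RPKM at P2 and 43.2 and 116 RPKM at P4, and 190 RPKM at P10. The P4 libraries did not overlap the P2 libraries there, nor at its promoter peak, with 4.76 and 8.30 RPKM at P2 and 14 and 36.9 RPKM at P4. All 3 Snx10 peaks had both P4 libraries above both P2 libraries, although they held only 53 reads in all.

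Dpf3 and Ankrd33b, an ankyrin repeat gene, were added after their values were seen because they carried many peaks. Dpf3 had 6 peaks with a median difference of 1.20, and 3 of them did not overlap. Besides the intronic peak above, a peak at −365 bases from one of its start sites read 4.34 and 5.83 RPKM at P2 and 13.1 and 30.6 RPKM at P4. A peak over another start site differed by 0.44, and an intronic one by −0.20, so the peaks of this gene did not share 1 difference. Ankrd33b had 8 peaks with a median of 0.88, of which 4 did not overlap and none was lower at P4 in both libraries.

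The lowest locus medians on the library scale were −0.39 at Mecr, −0.38 at Zfp608, −0.35 at Zfp638, −0.34 at Shisa2 and −0.26 at Nrip1. After centring they were −0.86, −0.85, −0.83, −0.81 and −0.73, about as far from 0 as the centred medians of Calcoco1 (1.06), Snx10 (0.94), Samd7 (0.94) and Tdrd7 (0.92). At Mecr, a mitochondrial fatty acid synthesis gene, 1 of the 3 peaks had no read in any of the 4 libraries, and neither of the others was free of overlap. Zfp608 was mixed: the peaks at −17680 and −48451 bases from the assigned start were lower at P4 in both libraries (−1.02 and −0.95), while its promoter peak differed by 0.19 and the peak at −5061 bases by 0.56. The farthest of these read 6.00 and 9.97 RPKM at P2, 3.02 and 4.08 RPKM at P4, 1.05 RPKM at P10 and 0.369 RPKM at P28.

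Transcription factor genes of photoreceptors had a median difference above that of all genes. At each gene's strongest peak, 7 of 18 with a peak were higher at an unadjusted p under 0.05 and 0 lower, beside 12.3% and 0.518% of all 5981 genes with a peak. None passed the limma adjusted p on either scale. The 2 groups differed in place: 7 of these 18 peaks were at promoters, beside 4180 of 5981 for all genes. On the library scale 20.6% of distal peaks and 9.69% of promoter peaks were higher at that unadjusted p. The part of place in the list's values was not tested. After centring 5 of 18 were higher and 0 lower, beside 4.35% and 4.01% of genes. The list's median difference was 0.99, beside 0.47 for all genes, and 0.44 beside 0.15 without P4 replicate 4. The 7 were Otx2 (2.41), Nr2e3 (1.5), Esrrb (1.5), Zbtb20 (1.44), Samd7 (1.41), Rora (1.25) and Samd11 (1.22). Esrrb, an orphan nuclear receptor gene expressed in rods, read 5.93 and 6.97 RPKM at P2 and 12 and 32.9 RPKM at P4 at an intronic peak.

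The regulators nearest to NRL itself gave mixed values. Nr2e3, the partner that represses cone genes, read 4.26 and 3.86 RPKM at P2 and 8.58 and 20.3 RPKM at P4 at an exonic peak, so the ages did not overlap. Crx had 3 peaks, and both P4 libraries were above both P2 libraries at each of them. Its promoter peak, shown above, read 4.57 and 5.02 RPKM at P2 and 9.22 and 12.7 RPKM at P4 (difference 1.03, SE 0.54, limma adjusted p = 0.36), and the other peaks differed by 1.13 and 1.42. The Neurod1 promoter, the gene of a basic helix-loop-helix factor, read 3.40 and 5.14 RPKM at P2 and 5.43 and 14.2 RPKM at P4 (difference 0.92, and 0.31 without P4 replicate 4). Another of its peaks differed by 0.43.

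At Nrl itself the ages overlapped. The strongest of its 3 peaks read 16.1 and 0 RPKM at P2 and 4.48 and 5.03 RPKM at P4, so the P2 replicates bracketed the P4 values. A further promoter peak at chr14:55521057-55521448 read 4.18 and 1.94 RPKM at P2 and 2.59 and 5.83 RPKM at P4 (difference 0.34, SE 0.54). Prdm1, which encodes a repressor of bipolar fate in photoreceptor precursors, differed by 0.22, or −0.25 after centring. The strongest peak of Casz1, a zinc finger factor of rods, differed by 0.77, and by 0.08 without P4 replicate 4.

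The AP-1 genes, whose products are also basic leucine zipper proteins, had a median difference below that of all genes. Of 12 genes 6 had a peak, and 0 of these 6 was higher or lower at an unadjusted p under 0.05 on either scale. The shares of all genes were 12.3% higher and 0.518% lower on the library scale, and 4.35% and 4.01% after centring. With 6 genes, a count of 0 cannot be told from those shares. Their median was 0.32, and −0.15 after centring. At the Jun promoter the values were 11 and 5.53 RPKM at P2 and 7.38 and 13.9 RPKM at P4, and at Jund 15.6 and 8.25 RPKM at P2 and 10.7 and 19.8 RPKM at P4, with the P2 values within the P4 range for 1 library of each. Jun, Jund and Junb differed by 0.34, 0.34 and 0.29 and were negative after centring (−0.13, −0.14 and −0.18). A second Junb peak, downstream of the gene, held 3 reads at P2 and 11 at P4, a ratio with an exact 95% interval of 0.859 to 18.2. The Fos peak at −18301 bases from the start read 15.2 and 11.7 RPKM at P2 and 12.2 and 63.3 RPKM at P4, and its difference of 1.02 became −0.12 without P4 replicate 4.

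The other basic leucine zipper genes had 2 of 22 higher and 0 lower on both scales, with a median of 0.63, or 0.16 after centring. The count was below the 12.3% of all genes on the library scale and above their 4.35% after centring. A count of 2 is too small to set the list apart. Those 2 were Bach1, encoding a haem-responsive repressor that pairs with small Maf proteins, and Creb3l1, encoding a membrane-bound factor. Bach1 read 2.74 and 1.38 RPKM at P2 and 5.52 and 18.6 RPKM at P4 at an intronic peak (difference 1.92, SE 0.57, limma adjusted p = 0.14). These values stood for 3 and 1 reads at P2 and 6 and 18 at P4. Creb3l1 differed by 1.57 and Mafa, a large Maf gene like Nrl, by 1.00.

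**Figure D3:**
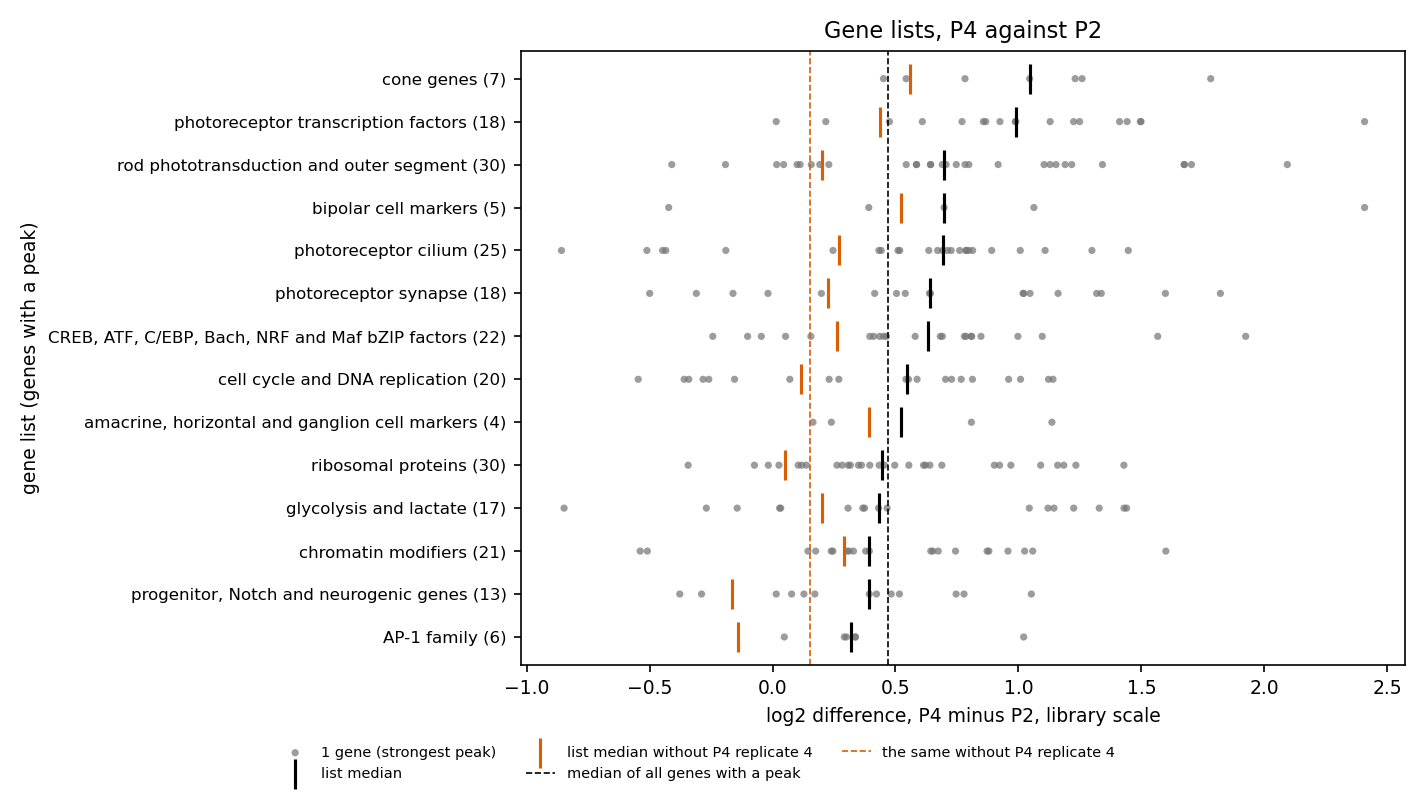
Differences between P4 and P2 (x axis, log2, library scale) at the strongest peak of each gene, by gene list (rows, with the number of genes that had a peak), for lists with at least 3 such genes. Black and orange bars are the list medians with all 4 libraries and without P4 replicate 4, and the dashed lines are the same medians over all 5981 genes, 0.47 and 0.15. Photoreceptor transcription factors had a median of 0.99 and AP-1 genes 0.32.

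Among cone genes 7 of 18 had a peak, with a median of 1.05, and 3 were higher at an unadjusted p under 0.05, beside 12.3% of all genes. After centring 1 of 7 was higher, Gnb3, beside 4.35%, and the median was 0.57. The 3 were the cone transducin genes Gnb3 and Gngt2, which differed by 1.78 and 1.26, and the chloride channel regulator gene Clca3a1, which rested on 1 read at P2 and 7 at P4 (ratio 6.21, exact 95% interval 0.798 to 280). The Gnb3 promoter peak read 3.43 and 2.59 RPKM at P2 (4 and 2 reads) and 7.77 and 20.4 RPKM at P4 (9 and 21 reads). The photoreceptor synapse list had 5 of 18 higher and 0 lower on the library scale, but 1 higher and 1 lower after centring, where the shares of all genes were 4.35% and 4.01%. The 1 higher on both scales was Stx3, the syntaxin of ribbon synapses, with 1 read at P2 and 10 at P4 (ratio 8.87, interval 1.26 to 385), and Nrxn3 differed by 1.6 on the library scale. Cilium genes had 3 of 25 higher and 0 lower, near the 12.3% of all genes, and 0 higher and 2 lower after centring, Ift122 (−1.33) and Bbs4 (−0.91). The 3 were Arl6, with 1 read at P2 and 8 at P4, Bbs7 (1.30) and Ift140 (1.11), all parts of ciliary transport. Glycolysis genes had 4 of 17 higher on the library scale and 0 after centring, with a centred median of −0.04. Among the 4 were Hk1 (1.22), and Ldhb and Eno2, each with 1 read at P2.

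Of the lists beyond photoreceptors, those of cell division (55.6%) and early development (39.4%) had a higher share of genes with a peak than those of other mature cell types. The share was higher still for lists tied to no cell type: 73.2% of ribosomal protein, 65.6% of chromatin modifier and 60.7% of glycolysis genes. Of the 20 cell cycle peaks 18 lay at promoters. The share over all genes of the genome was not computed. Notch, progenitor and neurogenic genes had 13 of 33 with a peak and a median of 0.39 (−0.17 without P4 replicate 4). Of these, 0 was higher or lower at an unadjusted p under 0.05, beside 12.3% and 0.518% of all genes. With 13 genes, a count of 0 cannot be told from those shares. The progenitor receptor gene Notch1 read 4.4 and 4.43 RPKM at P2 and 6.90 and 15.0 RPKM at P4 (difference 1.05, SE 0.54, limma adjusted p = 0.35). Of its ligand genes, Dll1 and Jag1 differed by 0.78 and 0.75, and Dll3 by −0.38. Cell cycle genes had 20 of 36 with a peak and 2 of 20 higher, below the 12.3% of all genes, and 0 higher and 1 lower after centring (Cdkn1a, −1.02). The 2 higher were Mcm7 (1.14), a replication gene, and Ccne1 (1.12), a cyclin gene, and Mcm2 differed by 1.01. Bipolar markers had 5 of 18 with a peak: Otx2 (2.41), which is also in the photoreceptor list, Bhlhe23 (1.06), Lrit3 (0.70), Nyx (0.39) and Trpm1 (−0.42). Of amacrine, horizontal and ganglion cell markers 4 of 26 had one (Nefl 1.14, Elavl3 0.81, Prox1 0.24, Slc6a9 0.16), of Müller glia markers 1 of 13 (Prdx6, 1.27), of pigment epithelium markers 1 of 11 (Mitf, 0.50) and of microglia and vessel markers 0 of 17. Hes1 and Ccnd1 had no assigned peak. These are bound loci and do not measure how many of each cell type were present.

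The medians of promoter and distal peaks differed little, and the sign of that gap depended on the library. Shares at an unadjusted p under 0.05 (limma) differed more. On the library scale 20.6% of distal and 9.69% of promoter peaks were higher, and 1.47% and 0.255% lower. After centring 8.92% of distal and 2.70% of promoter peaks were higher, and 5.66% and 3.54% lower. The 5106 peaks within 1 kb of a TSS had a median difference of 0.44 and the 3890 distal ones 0.58, which became −0.04 and 0.10 after centring. Taking single libraries, the promoter and distal medians were 0.0088 and 0.22 for P4 replicate 3 over P2 replicate 3, 0.21 and 0.12 for P4 replicate 3 over P2 replicate 4, 0.64 and 1.01 for P4 replicate 4 over P2 replicate 3, and 0.83 and 0.92 for P4 replicate 4 over P2 replicate 4. The order of the medians was thus turned in 1 of 4 pairs. Promoters made up 28.5% of the 485 peaks higher after centring, 45.1% of the 401 lower ones and 56.8% of all peaks.

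Promoters of replication-dependent histone genes, which encode the histones made in S phase, were lower relative to other promoters. This group was chosen after 3 of its members appeared among the 12 lowest peaks. Those 3 are counted in all values below. Their ranking required no overlap, so the counts of peaks without overlap were partly fixed by the choice. It held 22 promoter peaks of 21 genes, 21 of the peaks in the clusters on chromosome 13. The median difference was −0.14, beside 0.44 for all promoters, and −0.61 after centring, beside −0.04. After centring both P4 libraries lay below both P2 libraries at 15 of 22 peaks, beside 20.3% of promoters, and above at 2 of 22, beside 15.0%. On the library scale 7 of 22 lay below, beside 3.19% of promoters. The library-scale median was 0.028 without P2 replicate 3 and −0.46 without P4 replicate 4, and the centred one stayed between −0.79 and −0.48 whichever library was left out.

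The H3c2 promoter, shown above, read 5.27 and 10.1 RPKM at P2 and 1.45 and 3.26 RPKM at P4, so the ages did not overlap (difference −1.37, SE 0.50, limma adjusted p = 0.22). H2bc14 read 5.79 and 6.91 RPKM at P2 and 1.54 and 4.49 RPKM at P4. The peak at H2ac8, which runs into the divergent H2bc8 promoter, read 3.95 and 6.50 RPKM at P2 and 2.17 and 2.03 RPKM at P4. Not all members were lower: H4c9 read 2.27 and 1.71 RPKM at P2 and 5.72 and 6.43 RPKM at P4, on 3 and 10 reads (ratio 2.96, interval 0.761 to 16.7). A peak at −651 bases from the H4c3 start held 1 read at P2 and 10 at P4 (ratio 8.87, interval 1.26 to 385). The group took 0.594% and 0.498% of the reads in peaks at P2 and 0.328% and 0.257% at P4. Among its 25 RefSeq windows 84% held CCAAT and 32% the octamer ATTTGCAT, which the printed H2bc14 sequence holds once, beside 50.8% and 1.61% of windows under any peak, and 16% held TGCTGA beside 16.1%. Histone genes are near-identical copies, and the sources used here do not say how the authors placed reads that match several of them, so single members are uncertain.

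**Figure D4:**
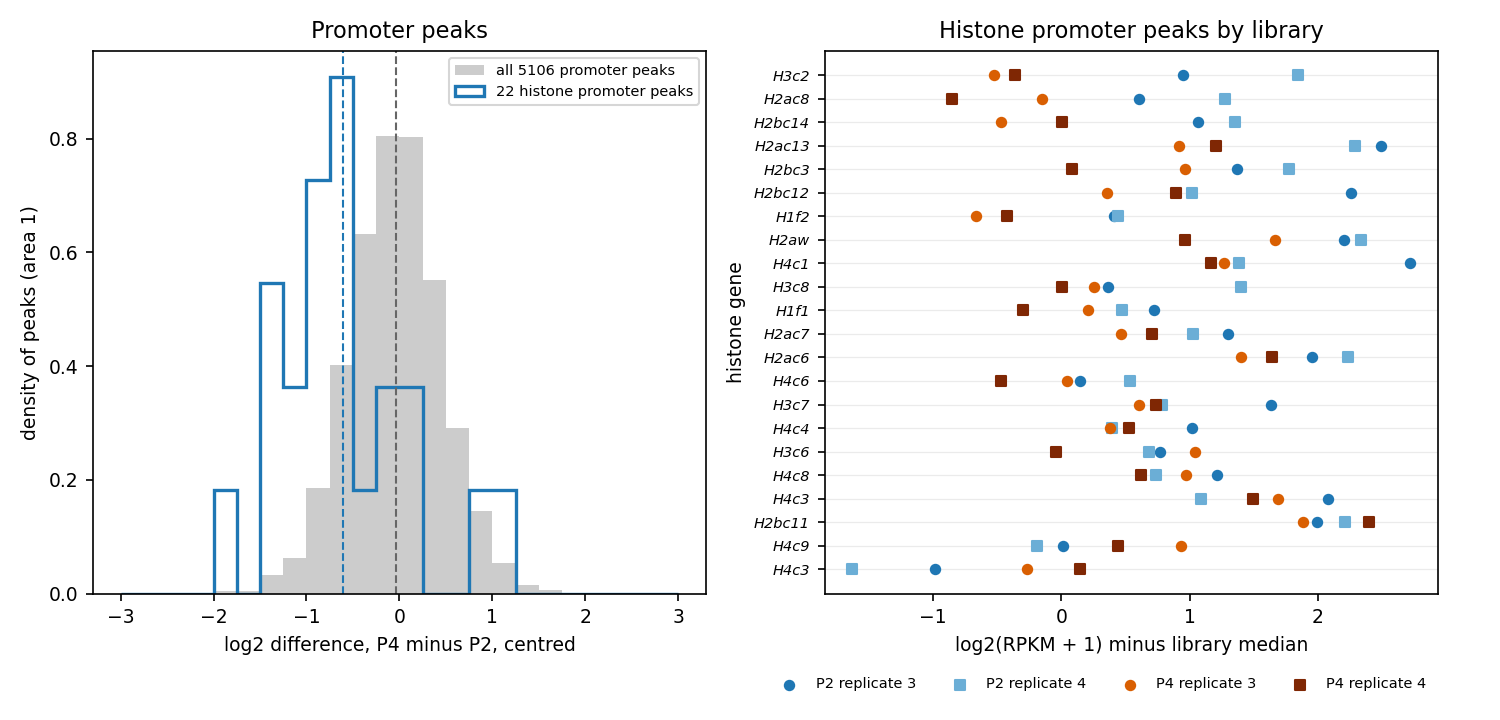
Left, density of the centred difference between P4 and P2 (x axis, log2) for all 5106 promoter peaks (grey) and the 22 histone promoter peaks (blue line), with dashed lines at the medians of −0.04 and −0.61. Right, each histone promoter peak (rows, named by gene) as log2(RPKM + 1) minus the library median in the 4 libraries. Both P4 libraries are below both P2 libraries at 15 of 22, among them the ranked peaks that led to the choice of this group.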

How the data were processed

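CUT&RUN signal was analysed in 2 P2 and 2 P4 libraries, grouped by the age in the labels. The aligner named in the submitters' processing notes is Bowtie2 2.3.5.1 and the peak caller MACS2 2.2.5, with build GRCm38.p6. The deposited table holds RPKM per peak and library, a unit read from its values, since the header names none. The authors' widths slip by 39 rows from one column to the next, and 100% of values are whole reads once this is undone (tolerance 0.001). RPKM was rebuilt from those reads on the correct widths, keeping the authors' scale for each library. The sources used here do not say how that scale was set or whether spike-in DNA entered it. The authors' deposited peak lists, 1 per age, hold a signal value and were used only for the presence of a peak. Gene, place and TSS distance are the authors' annotation.

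All 8 libraries of the table (replicates 1 and 4 at P10, 3 and 4 at P28) entered limma 3.58.1 (trend, robust; R 4.3.3) on log2(RPKM + 1) with age as factor, without a filter on low values, p-values adjusted over all peaks (Benjamini-Hochberg), with and without centring each library on its median. The test was checked on simulated data. The plan allowed for other units, and the RPKM form of the test was used. Named peaks follow the ranking given in the text, then the 6 highest and 6 lowest after centring, the 5 highest and 5 lowest loci, up to 3 genes of lowest p per list, and fixed photoreceptor, AP-1 and progenitor loci. A ranked peak and a locus that this rule names are not reported here. Members and lists were chosen with earlier results of these data known. Motif shares used RefSeq promoter windows (250 bases before to 50 after the TSS). Alternatives were a pseudocount of 0.1, centring, values as deposited, at least 20 reads, 4 libraries only, limma-voom on the recovered reads, the replicate number as a block, and each library left out.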

Additional observations from a re-analysis of the deposited data

How the results depend on the processing

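With 4 to 10 reads in the median peak, counting error limits single peaks, and 2 libraries an age limit every test. The count of 0 peaks passing an adjusted p of 0.05 (limma) became 8 with a pseudocount of 0.1, 139 with at least 20 reads, 19 with only the 4 P2 and P4 libraries and 8 with limma-voom. It became 36 with limma-voom on reads in peaks as library sizes, an alternative chosen after seeing the data, and ran from 0 to 836 with single libraries left out. The labels do not say whether replicate numbers pair the samples. The difference between replicates 3 and 4 correlated by 0.085 between P2 and P4 over peaks, which cannot decide it at so few reads per peak. With the replicate number as a block the fit gave 69 calls, so the count of 0 also depended on leaving the block out.

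The 1295 peaks higher at an unadjusted p under 0.05 became 485 after centring and 817 with 4 libraries, and ran from 433 to 2965 with single libraries left out. The 70 lower became 40 with a pseudocount of 0.1, 401 after centring, 34 with at least 20 reads and 37 with 4 libraries, and ran from 49 to 217. Centred calls ran from 0 to 2, centred higher peaks from 267 to 630 (316 in the values as deposited), with libraries left out. The median difference of 0.48 became 0.010 after centring and ran from 0.16 to 0.84. Promoter minus distal was −0.14, 0.092 in the values as deposited, and −0.28 to 0.0075. The photoreceptor transcription factor median ran from 0.44 to 1.64. The histone promoter median of −0.14 became −0.61 after centring and ran from −0.46 to 0.028, or −0.79 to −0.48 after centring (−0.74 without P2 replicate 4). Centring, where it turned the sign, gave −0.23 at Prox1, −0.13 at Jun, −0.14 at Jund, −0.18 at Junb and −0.25 at Prdm1, and the values as deposited gave 0.12 at Prkrip1 and −0.065 at Junb. With single libraries left out, signs turned at Prox1 (−0.11 to 0.59), Lrit3 (−0.029 to 1.42), Jun (−0.10 to 0.77), Mitf (−0.23 to 1.22), Jund (−0.084 to 0.76), Junb (−0.52 to 1.10), Prdm1 (−0.20 to 0.63), Fos (−0.12 to 2.16) and the strongest Nrl peak (−1.57 to 2.52). The causes were not tested. The ranked peaks kept their sign under every alternative except Prkrip1. The rule of no overlap fixed that sign in advance for most alternatives, so it is no sign of stability.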

Other observations

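The rod list, left out of the ranking, had 30 of 34 genes with a peak. Of these, 8 were higher at an unadjusted p under 0.05 and 0 lower, beside 12.3% and 0.518% of all genes, with a median difference of 0.70 (0.20 without P4 replicate 4). After centring 5 were higher and 0 lower, beside 4.35% and 4.01%, with a median of 0.23. The highest was Pde6b, a phosphodiesterase subunit gene, at 2.09, and the lowest was Guca1b, a cyclase activator gene, at −0.41. Ribosomal protein genes had 4 of 30 higher, among them Rpl10a (1.43), Rps18 (1.23) and Rps6 (1.18), with a median of 0.44. That is near the share of all genes, and after centring 1 was higher and 1 lower. Chromatin modifier genes had 2 of 21 higher, Tet3 (1.6) and Smarcc1 (1.06), with a median of 0.39, a share below that of all genes, and 0 higher and 1 lower after centring (Crebbp, −0.98). Smarca4, the ATPase of the BAF complex, differed by 1.03.

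The authors' peak lists split the table by age. Of the 8996 peaks, 972 overlapped both the P2 and the P4 list (median difference 0.52), 2177 the P4 list only (0.77), 245 the P2 list only (−0.33) and 5602 neither (0.36). These lists were called from the same ages, so the medians are a description. After centring the 245 peaks of the P2 list only had a median of −0.81. Of these, 91 were lower at an unadjusted p under 0.05, beside 4.46% of all 8996 peaks. Peaks called at P2 and not at P4 were picked partly by that difference, so this count too is a description.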
